A study of Homo sapiens with 28 samples.

Results

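The 10 genes described here encode secreted proteins that the liver releases into plasma and matrix: the heavy chains of the inter-alpha-trypsin inhibitors (ITIH1, ITIH2, ITIH3 and the related ITIH4), the precursor of their light chain (AMBP), the fetuins (AHSG and FETUB), alpha-2-macroglobulin (A2M), vitronectin (VTN) and angiotensinogen (AGT). They were taken by gene symbol from a list chosen with earlier results of these data known. All 10 of them were found among the 18961 amplicons of the deposited table. All 10 also passed the filter on low values, which 13100 amplicons passed. The 28 libraries came from 4 human liver tumour lines (HepG2, Hep3B, HuH7, and also PLC/PRF/5), each with 3 libraries of cells in culture (in vitro) and 4 of tumours (in ovo). HepG2 is a hepatoblastoma-derived line and the others come from liver carcinomas. The tumours had been grown on the chorioallantoic membrane of fertilized white leghorn eggs, grafted at embryonic day 9 and taken out at embryonic day 18. No line carried a drug or a genetic change named in the labels. Cultures and tumours went through RNA kits of different size, so kit and condition cannot be told apart. The codes that open the column names also carry different numbers for cultures and tumours. The labels do not say what these codes stand for, and they too cannot be told apart from condition. The labels do not say whether libraries of a group came from separate cultures or eggs, so a p value here measures only how these libraries spread, which may be technical. In such bulk samples, fewer cells of a type and less RNA per cell cannot be told apart.

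As background, AMBP is cut into alpha-1-microglobulin and bikunin, and bikunin is joined to the heavy chains through a chondroitin sulfate chain. The heavy chains can be passed on to hyaluronan by the protein TNFAIP6, which stabilises the matrix around cells. ITIH4 is an acute-phase plasma protein that lacks the bikunin link. AHSG binds calcium phosphate and is abundant in fetal plasma, FETUB inhibits an egg protease, A2M traps proteases of many classes and is cleared through LRP1, VTN is an adhesive protein bound by integrins, and AGT is the substrate of renin from which angiotensins are made.

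Each gene was read through 1 amplicon. The amplicons of ITIH1, ITIH2 and AHSG are shown because the values of these genes moved far or in an uneven way. Capitals mark exon 22 of ITIH1 and exon 21 of ITIH2, and the AHSG amplicon lies within exon 7.
ITIH1: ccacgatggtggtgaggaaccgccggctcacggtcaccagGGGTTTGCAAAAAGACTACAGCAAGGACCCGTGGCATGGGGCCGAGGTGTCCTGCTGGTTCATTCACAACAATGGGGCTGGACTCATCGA
ITIH2: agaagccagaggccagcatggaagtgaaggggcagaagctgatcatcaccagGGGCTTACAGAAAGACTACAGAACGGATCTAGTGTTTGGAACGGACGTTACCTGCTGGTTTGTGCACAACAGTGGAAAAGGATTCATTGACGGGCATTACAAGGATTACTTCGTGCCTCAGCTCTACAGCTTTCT
AHSG: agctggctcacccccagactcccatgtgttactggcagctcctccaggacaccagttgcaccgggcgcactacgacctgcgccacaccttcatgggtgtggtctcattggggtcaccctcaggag

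On GRCh38 with the GENCODE 29 annotation, the ITIH1 amplicon runs from chr3:52791589-52791871 on the plus strand across exons 21 and 22, the ITIH2 amplicon from chr10:7746653-7749321 on the plus strand across exons 20 and 21, and the AHSG amplicon lies at chr3:186620696-186620820 on the plus strand. These 3 amplicons are wholly coding. The ITIH1 and ITIH2 amplicons come from the same place in related genes, and 62 of the first 90 bases in capitals are the same. ITIH3 (chr3:52806925-52807059, exon 19), AMBP (chr9:114060263-114060995, exons 9 and 10), VTN (chr17:28367394-28367759, exons 7 and 8) and AGT (chr1:230703172-230703287, exon 5) were also read in coding bases. FETUB was read in the untranslated end of its exon 7 (chr3:186652678-186652821), with 0 coding bases. The ITIH4 amplicon (chr3:52814217-52816887, exons 21 and 22) is coding and also lies in a transcript annotated as AC006254.1, which spans ITIH4 and its neighbour MUSTN1, so reads of these cannot be told apart. ITIH1, ITIH3 and ITIH4 lie side by side on chromosome 3 between 52777592 and 52831479, and AHSG and FETUB lie next to each other on the same chromosome between 186612923 and 186653141.

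Depth was 6205368 to 8662998 reads per culture library and 6085750 to 15086465 per tumour library. A level of 3 reads, taken as the floor, was worth 0.199 to 0.493 CPM, that is, reads scaled to the same library total. Levels are given as CPM after scaling between libraries by the trimmed mean of M values (TMM), and log2 differences are on the scale of log2(CPM + 1), which understates the change of low genes. Differences were tested with limma in 1 fit over all 28 libraries, with Benjamini-Hochberg adjustment over the 13100 amplicons, and were called at an adjusted p under 0.05. Among 8 hepatocyte markers, ALB and TTR were at 0 in the PLC/PRF/5 cultures, where the summed marker level was 32.8 to 38.4 CPM, against at least 15800 CPM in the cultures of the other lines. Between cultures and tumours the sum of these markers went up in HepG2, Hep3B and PLC/PRF/5 and down in HuH7. It was 958 to 2002 CPM in PLC/PRF/5 tumours, 133400 to 171400 CPM in HepG2 tumours and 4701 to 6651 CPM in HuH7 tumours. SERPINA1 led in the tumours of both HepG2 (56450 CPM) and PLC/PRF/5 (421 CPM). The reads described near the end for HepG2 genes were not subtracted from this PLC/PRF/5 sum. Of 6 leukocyte markers, led by LYZ, the sum in HepG2 was 394 to 429 CPM in cultures and 6.13 to 68.9 CPM in tumours, with PTPRC and CD3E at 0 in both, and of 6 fibroblast markers the sum in HuH7 was 240.3 to 253 CPM and then 26.8 to 155 CPM. Markers of erythroid cells summed to at most 0.372 CPM in any library. The sum of 6 endothelial markers went from 8.89 to 11.85 CPM in HepG2 cultures to 41.5 to 53.2 CPM in the tumours, led by PECAM1 (8.73 and 42.2 CPM). It was 1.497 to 2.22 and then 3.47 to 7.56 CPM in Hep3B, 25.3 to 28.6 and then 7.82 to 18.9 CPM in HuH7, and 0.322 to 1.31 and then 3.26 to 7.56 CPM in PLC/PRF/5, with KDR at 0 in all groups. In vitro, 2.04 to 7.91% of 392 olfactory receptor amplicons were read at all, and in ovo 5.61 to 51.8%, and the part of these measures in the results below was not tested. The length trend of a library was taken as the Spearman rho, over genes, of amplicon length with the library's deviation. That deviation was its log2(CPM + 1) minus the mean of the other libraries of its group, so rho ranks libraries within a group only. The in ovo libraries numbered 3 of HepG2, Hep3B and HuH7 had the lowest rho of their groups (-0.34, -0.63 and -0.43), the steepest relative loss of long amplicons.

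The genes did not share 1 response to growth on the membrane. In HepG2, 5 of the 10 were higher in tumours and 3 lower, where 25.1% of all tested amplicons were called (12.1% higher and 13% lower). In Hep3B 8 were higher and 1 lower, against 52% of all amplicons (24.6% and 27.4%). In HuH7 3 were higher and 5 lower, against 43.4% (23.6% and 19.8%). In PLC/PRF/5 7 were higher and 0 lower, against 17.5% (11.9% and 5.61%), a count that was 4 higher and 1 lower once the reads described near the end for HepG2 genes were subtracted. Over the mean of the lines 8 were higher and 1 lower, against 66.3% of all amplicons (33.7% and 32.6%). The median log2 difference of the 10 genes was 0.51 for HepG2, 2.11 for Hep3B, -0.48 for HuH7 and 1.85 for PLC/PRF/5, beside -0.01, -0.05, 0.01 and 0.07 over all tested amplicons. Levels of tumours and cultures did not overlap for 8, 9, 8 and 9 of the 10 genes, against 39.4%, 55.6%, 48.5% and 39.5% of all amplicons.

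The response differed between lines for 9 of the 10 genes (limma interaction of line and condition, against 41.8% of all amplicons), the exception being VTN (adjusted p = 0.172). ITIH4, VTN and AGT were called higher in all 4 lines, which 1.53% of tested amplicons were, although the VTN difference in Hep3B was -0.20 with scaling by total reads alone and the AGT difference in PLC/PRF/5 was -0.75 after the subtraction of reads at HepG2 genes. ITIH2 was called lower in 3 lines and higher in none, which held for 3.68% of amplicons. AHSG and A2M were lower in tumours of HepG2 and HuH7 and higher in those of Hep3B and PLC/PRF/5, although in PLC/PRF/5 A2M was not called after that subtraction. Of all reads, the 10 genes took 1.99% ± 0.0890 (SD, n = 3) in HepG2 cultures and 1.33% ± 0.246 (SD, n = 4) in HepG2 tumours, 1.05% ± 0.02001 and 3.77% ± 0.847 in Hep3B, 0.380% ± 0.00548 and 0.331% ± 0.0890 in HuH7, and 0.00173% ± 0.000220 and 0.0194% ± 0.00495 in PLC/PRF/5.

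Single genes were also compared between lines, and these calls are to be read against the share of all amplicons called. Among cultures that share was 40% for HepG2 and Hep3B, 44.6% for HepG2 and HuH7, 50.9% for HepG2 and PLC/PRF/5, 34% for Hep3B and HuH7, 46.5% for Hep3B and PLC/PRF/5, and 49.1% for HuH7 and PLC/PRF/5. Among tumours it was 50.3%, 52.7%, 55.5%, 48.9%, 66.5% and 63.7% for the same pairs of lines. For the response of a line minus that of another it was 23.7%, 21.6%, 15.8%, 20.3%, 25.9% and 16.9%.

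**Figure D1:**
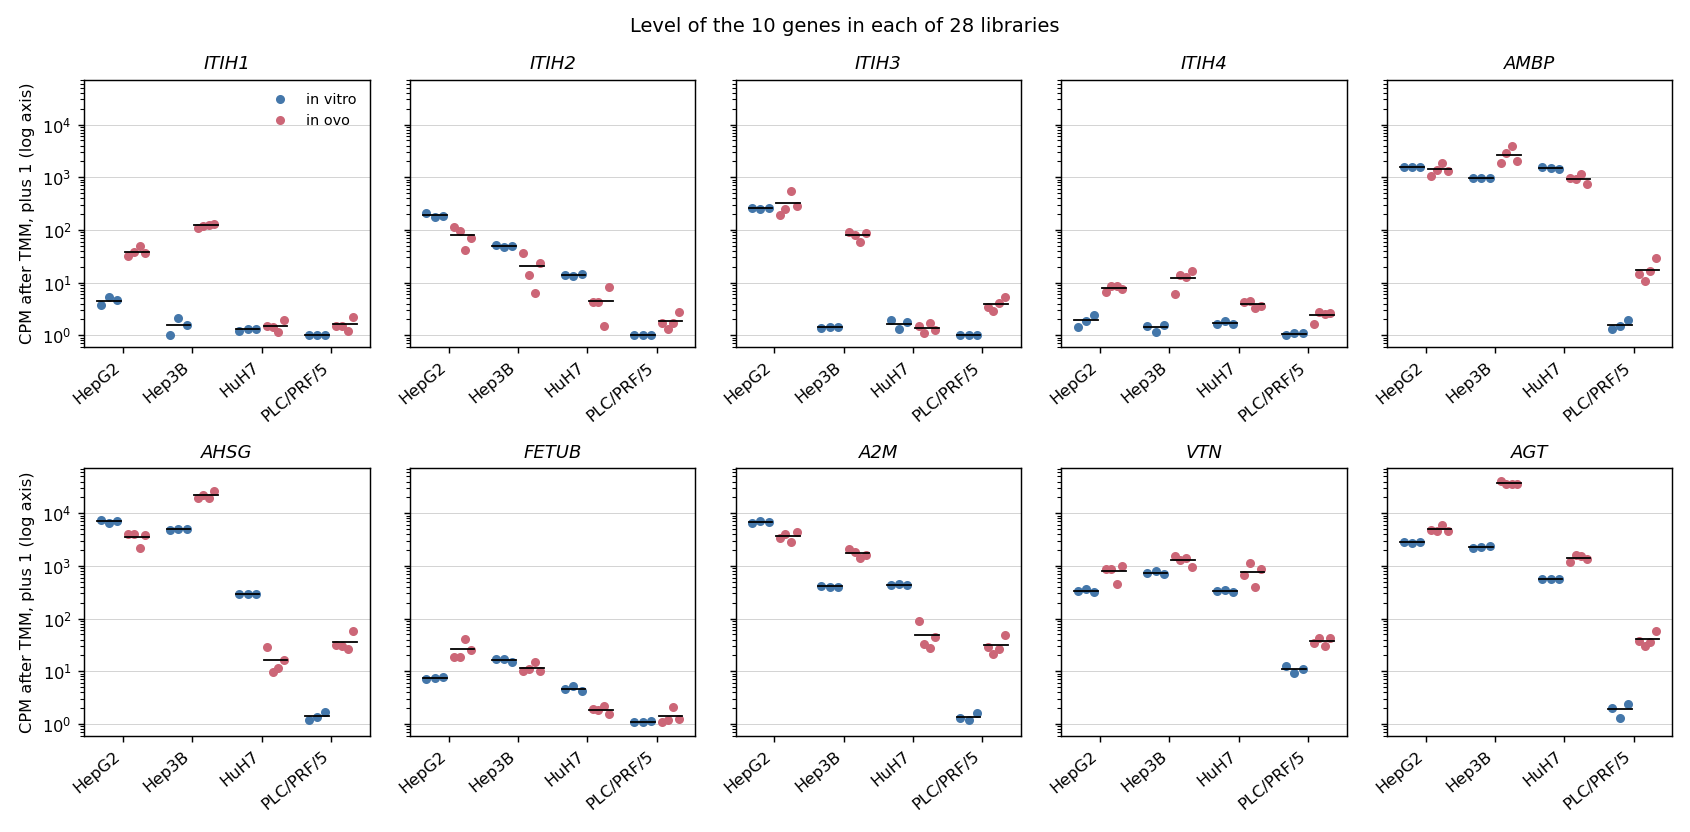
Level of each gene (CPM after TMM scaling, plus 1, on a log axis) in every library, by line, with cultures in blue, tumours in red and bars at the group means. The 3 lines HepG2, Hep3B and HuH7 read AMBP at 744 to 3915 CPM in both conditions, while ITIH1 and ITIH3 rise from near the bottom of the axis only in some lines, and PLC/PRF/5 sits below the others for most genes.

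**Figure D2:**
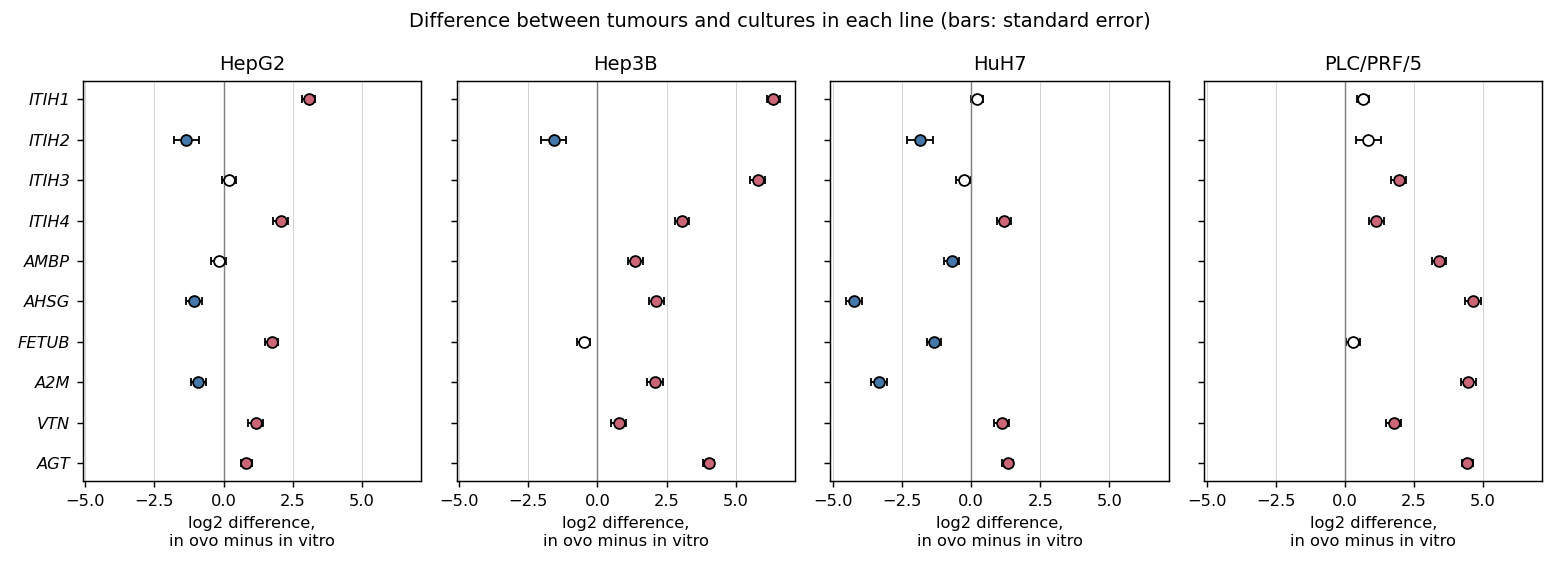
Difference in log2(CPM + 1), in ovo minus in vitro, for each gene and line, with bars of 1 standard error. Red points were called higher, blue points lower and open points neither, and the points of ITIH1, AHSG and A2M lie on different sides or at very different distances from 0 in different lines, while those of VTN lie close together (the VTN point of Hep3B is at -0.20 with scaling by total reads alone).

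AMBP, the source of bikunin, was read at 974 to 1584 CPM in the cultures of 3 lines. HepG2 cultures read it at 1553, 1577 and 1549 CPM, HuH7 cultures at 1584, 1524 and 1435 CPM, and Hep3B cultures at 974, 985 and 985 CPM. Neighbours in this order were not told apart (adjusted p of 0.938 between HepG2 and HuH7 and 0.103 between HuH7 and Hep3B). Still, every Hep3B culture lay below every HuH7 culture. The fit uses 1 spread per gene for cultures and tumours, and the SD of AMBP in Hep3B was 6.19 CPM in cultures and 955 CPM in tumours. In PLC/PRF/5 cultures it was read at 0.294, 0.477 and 0.942 CPM, from 3 to 8 reads per library. PLC/PRF/5 tumours read it at 13.4, 9.58, 15.3 and 28.02 CPM, all above the cultures (log2 difference 3.40, SE 0.27, adjusted p = 1.14e-09), and the difference was 1.33 (adjusted p = 0.0116) after the subtraction of reads at HepG2 genes.

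In Hep3B tumours AMBP was read at 1852, 2922, 3915 and 1994 CPM, so that all tumours lay above all cultures, and the log2 difference was 1.38 (SE 0.27, adjusted p = 0.000200). It was 0.40 (adjusted p = 0.0734) with scaling by total reads alone and 0.55 with trends of GC content and length removed. In HepG2 tumours it was read at 1048, 1345, 1900 and 1332 CPM, on both sides of the cultures (log2 difference -0.18, SE 0.27, adjusted p = 0.674).

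In HuH7 tumours AMBP was read at 973, 905, 1146 and 744 CPM, all below the cultures, with a log2 difference of -0.70 (SE 0.27, adjusted p = 0.0392). That call rested near the threshold. It was not called without any one of the 3 cultures (adjusted p of 0.104, 0.0928 and 0.0768 without replicates 1, 2 and 3), nor without tumour replicate 1, 2 or 4 (0.0563, 0.0665 and 0.0974), nor by edgeR on the recovered reads (0.0629).

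The heavy chains differed from AMBP and from each other. ITIH1 was low in all cultures. In HepG2 cultures it was at 2.68, 4.32 and 3.67 CPM (19 to 35 reads), Hep3B cultures at 0, 1.09 and 0.556 CPM (0 to 8 reads), and HuH7 cultures at 0.202, 0.329 and 0.330 CPM (2 or 3 reads). PLC/PRF/5 cultures had 0 reads of it in all 3 libraries.

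In Hep3B tumours ITIH1 was read at 110, 118, 125 and 129 CPM, and the rise of 6.35 on the log2 scale (SE 0.23, adjusted p = 2.25e-16) was the largest of any of the 10 genes in any line. In HepG2 tumours it was read at 31.0, 37.0, 47.5 and 35.3 CPM, a rise of 3.09 (SE 0.23, adjusted p = 3.15e-10). Neither pair of groups overlapped, and the rise in Hep3B was the larger (HepG2 minus Hep3B, -3.27, SE 0.33, adjusted p = 5.47e-08). The order of the lines turned with it, since HepG2 was the higher of the 2 in culture and Hep3B the higher as a tumour (log2 difference 1.66, adjusted p = 5.36e-07).

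In HuH7 tumours ITIH1 stayed near the floor, at 0.514, 0.430, 0.169 and 0.943 CPM (1 to 11 reads), where 4.6% of olfactory receptor amplicons reached at least the mean level of ITIH1. PLC/PRF/5 tumours read it at 0.506, 0.504, 0.227 and 1.21 CPM. Their mean of 0.612 CPM was at least 1.73-fold higher than the floor of 3 reads in the culture library where that floor was highest (0.353 CPM), and the lowest tumour lay below that floor. The difference of 0.65 had an adjusted p of 0.0551. It passed the threshold in 6 fits that left out 1 library (HepG2, Hep3B, HuH7 or PLC/PRF/5 tumour replicate 3, or Hep3B culture replicate 1 or 2, with an adjusted p of 0.0376 to 0.0473). It also passed without all tumours numbered 3 (0.00960), with scaling by total reads alone (0.0434) and by edgeR on the recovered reads (0.00183). It was 0.40 (adjusted p = 0.2503) with trends of GC content and length removed and 0.35 (adjusted p = 0.354) after the subtraction of reads at HepG2 genes.

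ITIH3, the neighbour of ITIH1 on the chromosome, was split between lines in culture. In HepG2 cultures it was at 255, 251 and 262 CPM, and Hep3B cultures at 0.396, 0.409 and 0.445 CPM, from 3 or 4 reads. HuH7 cultures gave 0.911, 0.329 and 0.769 CPM, and PLC/PRF/5 cultures had 0 reads of it.

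In Hep3B tumours ITIH3 was read at 91.3, 77.3, 57.7 and 88.1 CPM, a rise of 5.79 (SE 0.26, adjusted p = 1.42e-14) with no overlap. HepG2 tumours read it at 194, 249, 553 and 279 CPM, which overlapped the cultures (log2 difference 0.20, SE 0.26, adjusted p = 0.638), and without tumour replicate 3, the highest, the difference was -0.11. The HepG2 response minus that of Hep3B was -5.59 (SE 0.37, adjusted p = 4.29e-11). Hep3B thus gained both ITIH1 and ITIH3, and HepG2, which already read ITIH3 in culture, gained ITIH1.

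HuH7 tumours read ITIH3 at 0.514, 0.108, 0.674 and 0.257 CPM, from 1 to 4 reads, and 6.39% of olfactory receptor amplicons reached its mean level there. PLC/PRF/5 tumours read it at 2.43, 1.93, 3.06 and 4.29 CPM, and the difference was 1.94 (SE 0.26, adjusted p = 7.28e-06). Their mean of 2.93 CPM was at least 8.28-fold higher than the culture floor of 0.353 CPM. After the subtraction of reads at HepG2 genes it was 0.22 (adjusted p = 0.637).

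ITIH2 was lower in the tumours of 3 lines. HepG2 cultures read it at 206, 175 and 184 CPM and HepG2 tumours at 112, 92.3, 40.03 and 70.5 CPM, a fall of 1.34 on the log2 scale (SE 0.47, adjusted p = 0.0357). Hep3B cultures read it at 51.7, 47.0 and 48.6 CPM and tumours at 36.1, 13.1, 5.44 and 22.2 CPM, and it fell by 1.58 (SE 0.47, adjusted p = 0.00671). HuH7 cultures read it at 13.2, 12.6 and 13.4 CPM and tumours at 3.34, 3.23, 0.506 and 7.11 CPM, and it fell by 1.86 (SE 0.47, adjusted p = 0.00270).

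Every tumour of these 3 lines lay below every culture of its line, and the 3 falls were not told apart from each other (adjusted p of 0.664 to 0.845 for the 3 pairs of lines). The order of the lines was HepG2, Hep3B, HuH7 and PLC/PRF/5 in both conditions, with every step called. PLC/PRF/5 cultures had 0 reads of ITIH2 and tumours gave 0.709, 0.336, 0.680 and 1.76 CPM (log2 difference 0.85, adjusted p = 0.229). The mean of these, 0.871 CPM, was at least 2.46-fold higher than the same floor, and the lowest tumour lay below it. That difference was called by edgeR on the recovered reads (adjusted p = 0.0134) and without the in ovo libraries numbered 3 (0.0195), and it was 0.22 (adjusted p = 0.842) after the subtraction of reads at HepG2 genes.

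The ITIH2 amplicon, 187 bases as printed above, is long for this panel, where the median was 137 bases and 80.4% of tested amplicons were shorter than 187. In HepG2, Hep3B and HuH7 the tumour with the lowest ITIH2 was replicate 3, which also had the lowest length trend (rho) among the tumours of its line. The tumour with the highest ITIH2 had the highest rho among them (0.38, 0.63 and 0.52). Across all tested amplicons the differences between tumours and cultures ran against length (rho over genes of -0.29, -0.48 and -0.34 in these lines). They also ran with GC content (rho of 0.27, 0.46 and 0.51), which is 49.2% in the ITIH2 amplicon. With trends of GC content and length removed from each library, ITIH2 still fell, by 0.98 in HepG2 (adjusted p = 0.0114), 0.85 in Hep3B (0.0183) and 1.39 in HuH7 (0.000453). The HepG2 fall was not called by edgeR on the recovered reads (0.0629), without culture replicate 1, 2 or 3 (0.113, 0.0756 and 0.0850) or without tumour replicate 3 or 4 (0.128 and 0.0653).

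**Figure D3:**
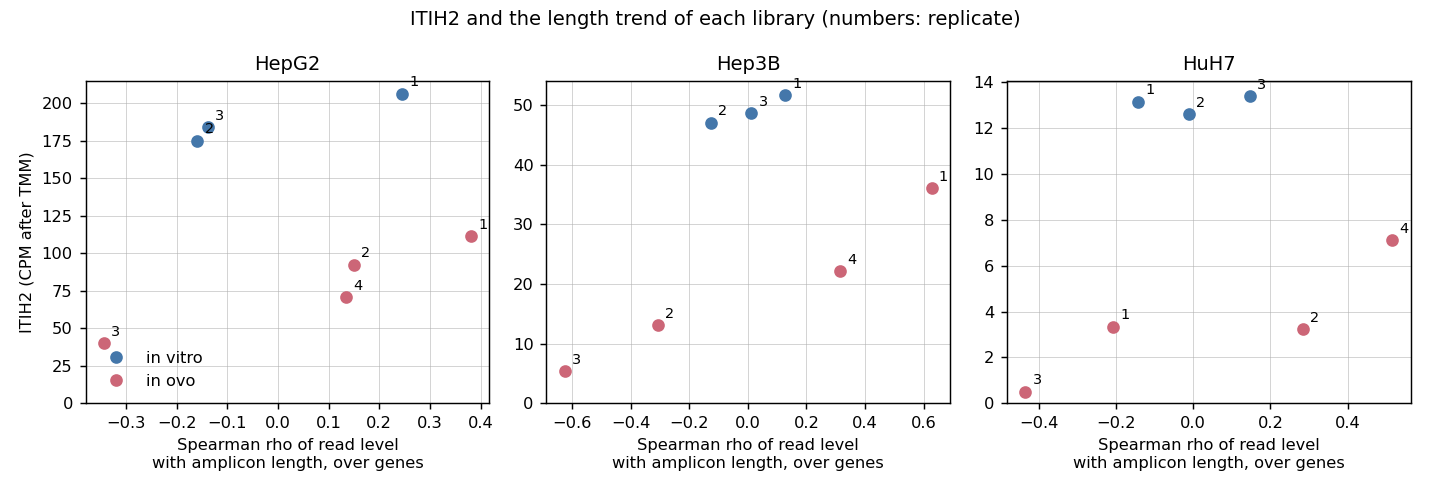
ITIH2 level (CPM after TMM scaling) in HepG2, Hep3B and HuH7 libraries against the length trend of the same library. That trend is the Spearman rho, over genes, of amplicon length with the library's deviation from the other libraries of its own group. Cultures and tumours can therefore not be compared along this axis. Cultures are in blue and tumours in red, with replicate numbers beside the points. Replicate 3 is the leftmost and lowest tumour in each of the 3 lines, and within each line all tumours lie below all cultures.

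Read through an amplicon shared with AC006254.1, ITIH4 was scarce in all cultures and higher in the tumours of all lines. ITIH4 forms no bikunin complex. In HepG2, cultures read it at 0.423, 0.863 and 1.45 CPM and tumours at 5.51, 7.68, 7.69 and 6.45 CPM (log2 difference 2.06, SE 0.26, adjusted p = 1.71e-06). Hep3B cultures read it at 0.528, 0.136 and 0.556 CPM and tumours at 5.11, 13.1, 11.6 and 15.5 CPM (3.06, SE 0.26, adjusted p = 1.76e-09). HuH7 cultures read it at 0.607, 0.877 and 0.659 CPM and tumours at 3.34, 3.44, 2.36 and 2.57 CPM (1.19, SE 0.26, adjusted p = 0.000923).

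No tumour of these lines overlapped a culture. PLC/PRF/5 cultures gave 0, 0.0954 and 0.118 CPM (0, 1 and 1 reads) and tumours 0.608, 1.76, 1.59 and 1.65 CPM (6 to 21 reads), a difference of 1.13 (SE 0.26, adjusted p = 0.00330) that was not called with a pseudocount of 5 CPM (0.119). Olfactory receptor amplicons that reached the mean level of ITIH4 numbered 5 of 391 in HuH7 tumours and 0 in the tumours of the other lines. MUSTN1 went from 3.45 to 4.09 CPM in HepG2 cultures to 12.96 to 32.9 CPM in the tumours. It went from 3.68 to 3.90 to 22.7 to 48.4 CPM in Hep3B and from 2.41 to 3.44 to 9.14 to 21.6 CPM in HuH7. In PLC/PRF/5 its groups overlapped (0.825 to 1.66 and 1.62 to 5.13 CPM). The part of the shared transcript in the ITIH4 reads was not tested. The cultures of neighbouring lines in the order were not told apart in ITIH4. Among tumours the order was Hep3B, HepG2, HuH7 and PLC/PRF/5, with Hep3B and HepG2 not told apart (adjusted p = 0.0530).

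The fetuin AHSG was the gene whose lines parted most. HepG2 cultures read it at 7486, 6615 and 7167 CPM and tumours at 4005, 4038, 2175 and 3799 CPM, a fall of 1.06 (SE 0.29, adjusted p = 0.00756). Hep3B cultures read it at 4725, 4962 and 5079 CPM and tumours at 19356, 22460, 19443 and 25965 CPM, a rise of 2.14 (SE 0.29, adjusted p = 1.75e-06). HuH7 cultures read it at 289, 289 and 289 CPM and tumours at 27.8, 8.71, 10.6 and 15.6 CPM, a difference of -4.25 (SE 0.29, adjusted p = 2.84e-11).

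In each of these lines cultures and tumours did not overlap. In culture HepG2 and Hep3B were not told apart (adjusted p = 0.189) in this fit, whose spread per gene covers cultures and tumours together. Still, every HepG2 culture lay above every Hep3B culture. As tumours Hep3B stood above HepG2 by 2.67 on the log2 scale (adjusted p = 5.67e-09). HuH7 cultures stood above those of PLC/PRF/5 by 7.68, while HuH7 tumours stood below those of PLC/PRF/5 by 1.19 (adjusted p = 0.000378). PLC/PRF/5 cultures gave 0.196, 0.382 and 0.707 CPM and tumours 30.8, 29.2, 25.5 and 56.4 CPM (4.62, SE 0.29, adjusted p = 1.06e-11), and the difference was 1.63 (adjusted p = 0.0202) after the subtraction of reads at HepG2 genes.

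FETUB, which lies next to AHSG, did not follow it. HepG2 cultures read FETUB at 6.21, 6.41 and 6.67 CPM and tumours at 17.9, 17.6, 40.03 and 24.7 CPM, a rise of 1.73 (SE 0.25, adjusted p = 9.00e-06) in the line where AHSG fell. Hep3B cultures read it at 16.0, 16.0 and 14.02 CPM and tumours at 9.16, 10.1, 14.2 and 9.25 CPM, which overlapped (-0.50, SE 0.25, adjusted p = 0.0950). This was called lower with scaling by total reads alone (-1.38) and without tumour replicate 3 of Hep3B (adjusted p = 0.0479) or of HepG2 (0.0489).

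In HuH7 FETUB fell with AHSG, from 3.64, 4.17 and 3.19 CPM to 0.900, 0.861, 1.18 and 0.514 CPM (log2 difference -1.33, SE 0.25, adjusted p = 0.000170). The tumour level came from 6 to 8 reads, and 3.84% of olfactory receptor amplicons reached its mean. In PLC/PRF/5 FETUB was at 1 read in every culture and at 1, 2, 10 and 2 reads in the tumours. Since FETUB was read in its untranslated end, its level is that of transcripts that hold that end.

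A2M was lower in tumours of HepG2 and HuH7 and higher in those of Hep3B, as AHSG was. HepG2 cultures read it at 6650, 7083 and 6693 CPM and tumours at 3428, 4026, 2827 and 4324 CPM, and it fell by 0.92 (SE 0.28, adjusted p = 0.0175). Hep3B cultures read it at 410, 403 and 405 CPM and tumours at 2055, 1854, 1439 and 1602 CPM, and it rose by 2.08 (SE 0.28, adjusted p = 1.89e-06). HuH7 cultures read it at 438, 455 and 429 CPM and tumours at 88.9, 32.1, 27.0 and 44.2 CPM, and it fell by 3.33 (SE 0.28, adjusted p = 1.56e-09).

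Hep3B and HuH7 cultures were not told apart in this protease trap by the fit (log2 difference -0.12, SE 0.30, adjusted p = 0.836). Still, every Hep3B culture lay below every HuH7 culture. The tumours of these lines stood 5.29 apart (SE 0.26, adjusted p = 7.70e-15). The responses of the 2 lines differed by 5.41 (SE 0.40, adjusted p = 1.76e-10). The HepG2 fall was not called without culture replicate 2 (adjusted p = 0.0599) or tumour replicate 3 (0.0570). PLC/PRF/5 cultures gave 0.294, 0.191 and 0.589 CPM and tumours 28.3, 20.0, 25.4 and 46.9 CPM (4.46, SE 0.28, adjusted p = 1.41e-11), a difference that was -0.31 (adjusted p = 0.474) after the subtraction of reads at HepG2 genes.

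VTN was higher in the tumours of every line, in Hep3B only under scalings other than total reads alone. HepG2 went from 340, 357 and 324 CPM to 872, 879, 451 and 996 CPM (1.17, SE 0.27, adjusted p = 0.00220). HuH7 went from 335, 350 and 315 CPM to 659, 1144, 401 and 878 CPM (1.11, SE 0.27, adjusted p = 0.00232). PLC/PRF/5 went from 11.4, 8.30 and 10.2 CPM to 33.4, 42.5, 28.6 and 42.3 CPM (1.77, SE 0.27, adjusted p = 3.59e-05).

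Groups did not overlap in any of these lines. Hep3B went from 730, 804 and 708 CPM to 1531, 1314, 1402 and 940 CPM, also with no overlap (0.77, SE 0.27, adjusted p = 0.0205). That call depended on scaling, since with total reads alone the difference was -0.20 (adjusted p = 0.650) while the median of all amplicons was -0.74. It was not called with GC and length trends removed (0.102), or without Hep3B culture replicate 1 (0.0571) or 3 (0.0633). With total reads alone VTN was also not called in HepG2 (0.93, adjusted p = 0.0596) and HuH7 (0.85, adjusted p = 0.0583).

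The 6 differences between lines in the VTN response ran from 0.06 to 1.00 in size, each with an SE of 0.38, and none was called. The interaction had an adjusted p of 0.00267 without the in ovo libraries numbered 3 and of 0.0363 with scaling by total reads alone. HepG2 and HuH7 were not told apart in VTN in culture (adjusted p = 0.959) and as tumours (0.788), with Hep3B above them and PLC/PRF/5 below in both conditions.

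AGT gave the highest level of any of the 10 genes. Hep3B tumours read it at 41695, 36212, 36058 and 35733 CPM, against 2221, 2314 and 2350 CPM in the cultures, a rise of 4.02 (SE 0.20, adjusted p = 6.84e-14). HepG2 went from 2905, 2731 and 2813 CPM to 4738, 4626, 5982 and 4695 CPM (0.82, SE 0.20, adjusted p = 0.00322). HuH7 went from 564, 563 and 569 CPM to 1212, 1629, 1510 and 1333 CPM (1.32, SE 0.20, adjusted p = 1.28e-05).

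In these lines no tumour overlapped a culture. HepG2 and Hep3B cultures were not told apart in AGT by the fit (adjusted p = 0.305), although every HepG2 culture lay above every Hep3B culture. As tumours Hep3B stood above HepG2 by 2.91 (adjusted p = 1.28e-12). The responses of HepG2 and HuH7 were not told apart (difference -0.50, SE 0.28, adjusted p = 0.246). PLC/PRF/5 went from 0.978, 0.286 and 1.41 CPM to 36.4, 29.6, 34.3 and 58.1 CPM (4.42, SE 0.20, adjusted p = 3.90e-14), a difference that was -0.75 (adjusted p = 0.00404) after the subtraction of reads at HepG2 genes.

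ITIH4, VTN and AGT were the 3 genes called higher in all lines (VTN in Hep3B not with scaling by total reads alone, and AGT in PLC/PRF/5 not after the subtraction below). ITIH4 was read through the amplicon it shares with AC006254.1. The bases just before the RefSeq starts (GRCh38.p14) of these 3 genes are shown. ITIH2 and A2M had no promoter entry, and the ITIH1 entries lay inside that gene. Among the windows searched, the letters TTCNNNGAA, a STAT-type motif, were found only in those of these 3 genes. The capitals mark that match and, in AGT, also the letters TATAAA. The windows are chr1:230714123-230714302 for AGT, chr3:52830673-52830762 for ITIH4 and chr17:28370308-28370427 for VTN, all on the minus strand.
AGT: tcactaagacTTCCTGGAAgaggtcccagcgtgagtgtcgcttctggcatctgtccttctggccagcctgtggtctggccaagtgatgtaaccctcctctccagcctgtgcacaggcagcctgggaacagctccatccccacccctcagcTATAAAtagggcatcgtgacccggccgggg
ITIH4: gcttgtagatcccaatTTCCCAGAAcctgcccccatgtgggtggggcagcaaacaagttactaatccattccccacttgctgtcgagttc
VTN: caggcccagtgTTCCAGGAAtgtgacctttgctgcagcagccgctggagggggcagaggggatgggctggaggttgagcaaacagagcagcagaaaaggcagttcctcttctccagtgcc

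The RefSeq table held 11 promoter entries for 8 of the 10 genes, of 250 bases before and 50 after a start, and ITIH2 and A2M were not matched. The ITIH1 entries began at chr3:52778236 or later, past the GENCODE start of that gene at 52777592, so bases before it were not searched. Windows of VTN and ITIH4 also lay inside the GENCODE bounds of their genes. The motif was searched on both strands and was found in 7.66% of 35116 promoters. TATAAA was found in AGT and FETUB and in 11.5% of promoters. The letters CAAAGTCCA, a core of the HNF4 motif, were found in AHSG and in 0.384% of promoters. The short HNF1, FOXA and CEBP motifs searched, by the letters GTTAAT for the first, were found in no entry of these genes and in 6.88%, 3.42% and 0.151% of promoters. The FOXA letters were TGTTTAC. The CEBP letters were TTGCGCAA. A match describes letters only, and no test of binding is in these data.

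In PLC/PRF/5 the cultures read all of the 10 genes but VTN at no more than 1.41 CPM, and for 6 of them the tumour level was a similar share of the level in HepG2 tumours. As CPM of total reads, the mean of the PLC/PRF/5 tumours was 1.05% of that of HepG2 tumours for AGT, 1.06% for A2M, 1.27% for ITIH3, 1.29% for AHSG, 1.34% for ITIH2 and 1.56% for AMBP. It was 2.15% for FETUB and 2.17% for ITIH1, each from few reads. VTN at 6.02% and ITIH4 at 28.04% lay above this range. Against Hep3B tumours the same genes ran from 0.214% for AGT to 8.33% for ITIH2, with ITIH4 at 25.8%.

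8 other genes that HepG2 libraries all read at 100 CPM or more, that the PLC/PRF/5 cultures read at 1 CPM or less and that the remaining lines read at no more than 5% of HepG2 were read in the PLC/PRF/5 tumours too. Their median was 0.971%, 0.953%, 1.27% and 1.62% of the HepG2 tumour level in tumour replicates 1 to 4, against 0 to 0.0239% in the cultures. In the codes that open the column names, HepG2 and PLC/PRF/5 tumours share the letters A to D and carry neighbouring numbers. HuH7 and Hep3B tumours share E to H with the same numbers, and the PLC/PRF/5 cultures carry other numbers. What these codes stand for is not given. Whether the reads at HepG2 genes came from the PLC/PRF/5 tumours or from other libraries was not tested. Hep3B tumours read 5 such HepG2 genes at a median of 0.145 to 0.820%, against 0.0559 to 0.133% in Hep3B cultures. With the median share of each PLC/PRF/5 tumour subtracted amplicon by amplicon, an alternative chosen after the data were seen, the A2M difference was -0.31 (adjusted p = 0.474), that of AGT -0.75 (0.00404) and that of ITIH3 0.22 (0.637). AHSG (1.63), AMBP (1.33), VTN (1.41) and ITIH4 were still called higher.

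**Figure D4:**
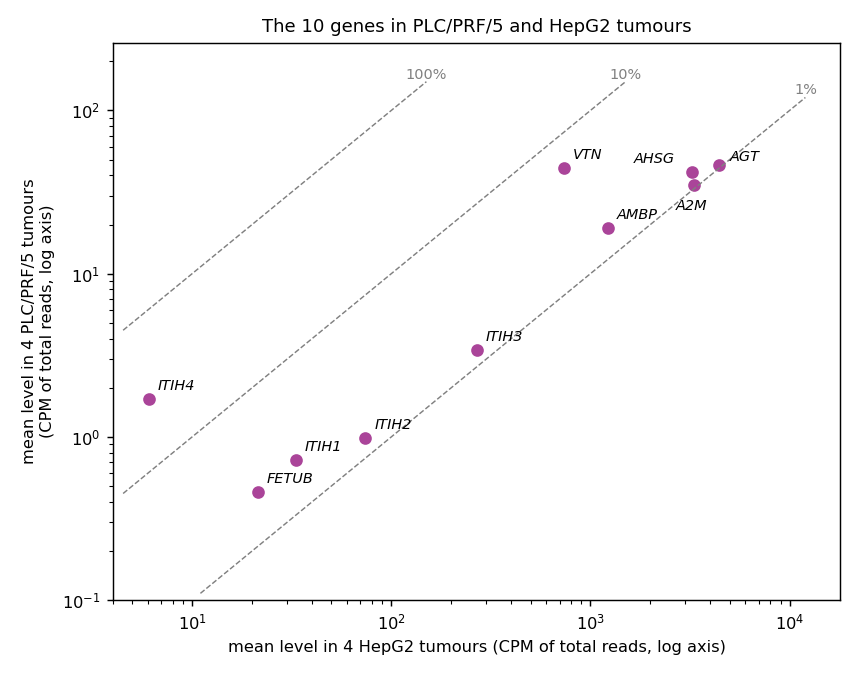
Mean level of the 10 genes in 4 PLC/PRF/5 tumours against the mean in 4 HepG2 tumours (CPM of total reads, log axes), with dashed lines at 1, 10 and 100% of the HepG2 level. AGT, A2M, ITIH3, AHSG, ITIH2 and AMBP lie between 1.05 and 1.56%, and VTN and ITIH4 lie above them at 6.02 and 28.04%.

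Around the heavy chains, a list of 20 genes of the hyaluronan network held enzymes, receptors and partners, of which 15 were tested. Of all amplicons, 25.1% were called in HepG2 (12.1% higher and 13% lower), 52% in Hep3B (24.6% and 27.4%), 43.4% in HuH7 (23.6% and 19.8%) and 17.5% in PLC/PRF/5 (11.9% and 5.61%). The higher and lower counts were 0 and 3 for HepG2, 3 and 6 for Hep3B, 3 and 4 for HuH7, and 1 and 4 for PLC/PRF/5, with list medians of -0.05, 0, 0.14 and 0 in that order. ITIH5, another heavy chain gene, fell in HepG2 from 33.2 ± 2.74 (SD, n = 3) to 3.24 ± 1.86 CPM (SD, n = 4), a log2 difference of -3.17 (adjusted p = 6.07e-09). HYAL1, a hyaluronidase, rose in Hep3B from 23.9 to 136 CPM and VCAN, a hyaluronan-binding proteoglycan, rose in HuH7 from 67.7 to 639 CPM. FURIN, a proprotein-processing protease, fell in Hep3B from 202 to 52.4 CPM.

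Of 15 relatives of macroglobulin and the fetuins, 10 were tested. HepG2 had 2 of them higher and 2 lower (list median -0.11), Hep3B 6 and 2 (1.10), HuH7 2 and 5 (-0.22), and PLC/PRF/5 5 and 0 (0.89), beside 25.1%, 52%, 43.4% and 17.5% of all amplicons called in those lines. No list count for PLC/PRF/5, here or in the other lists, was repeated after the subtraction of reads at HepG2 genes. KNG1, the kininogen gene whose product shares cystatin domains with the fetuins, rose in HepG2 from 6.14 to 55.6 CPM (2.97, adjusted p = 1.39e-07) and fell in HuH7 from 169 to 26.9 CPM (-2.92, adjusted p = 1.41e-07). C3, a complement protein of the macroglobulin family, fell in HuH7 to 456 CPM (-2.71, adjusted p = 0.000236). LRP1, the receptor that clears A2M, rose in Hep3B from 236 to 1477 CPM and in PLC/PRF/5 from 53.0 to 240.4 CPM.

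Of 14 partners of VTN, 11 were tested. Counts were 0 higher and 6 lower for HepG2 (list median -1.08), 3 and 2 for Hep3B (0.03), 2 and 3 for HuH7 (0.05), and 0 and 2 for PLC/PRF/5 (-0.47), with 25.1%, 52%, 43.4% and 17.5% of all amplicons called, so that the counts in Hep3B and HuH7 lay near those shares. ITGB1, a shared integrin beta chain, fell in HepG2 (263 to 63.7 CPM), Hep3B (423 to 44.2 CPM) and HuH7 (243 to 81.8 CPM). ITGB8 rose in HuH7 from 5.76 to 121 CPM. VTN itself was higher in these lines, as given above.

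Of 16 other genes of the renin-angiotensin system, 10 were tested. HepG2 had 1 higher and 2 lower (list median -0.11), Hep3B 4 and 2 (-0.17), HuH7 2 and 2 (0.15), and PLC/PRF/5 2 and 0 (-0.31 as the list median, below 0 although both calls were higher), and these counts lay near the 25.1%, 52%, 43.4% and 17.5% of all amplicons called. ANPEP, an aminopeptidase that trims angiotensins, rose in Hep3B from 134 to 618 CPM and in HepG2 from 659.6 to 1077 CPM. PREP, a prolyl endopeptidase, fell in HepG2, Hep3B and HuH7, in Hep3B from 48.1 to 4.43 CPM. ENPEP, another angiotensin-trimming aminopeptidase, rose in HuH7 from 11.9 to 59.2 CPM.

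All 20 listed liver transcription factors were tested. Counts were 7 higher and 3 lower for HepG2 (list median 0.05), 5 and 7 for Hep3B (-0.16), 6 and 5 for HuH7 (-0.07), and 10 and 1 for PLC/PRF/5 (1.01), where 25.1%, 52%, 43.4% and 17.5% of all amplicons were called. The PLC/PRF/5 values here are likewise those before the subtraction of reads at HepG2 genes. HNF4A, a regulator of many plasma protein genes, rose in PLC/PRF/5 from 15.9 ± 2.29 to 136 ± 60.1 CPM (2.86, adjusted p = 1.88e-07). CEBPA rose in PLC/PRF/5 from 3.00 to 63.1 CPM and in HepG2 from 22.9 to 105 CPM. NR1H4, the bile acid receptor gene, fell in HuH7 from 27.9 to 1.11 CPM (-3.80, adjusted p = 5.59e-10). In that line 6 listed factors were higher and 5 lower, and the largest called change of a factor averaging at least 10 CPM was a rise.

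The genes whose levels ran most like those of each gene over the 28 libraries were found by Pearson's r of log2(CPM + 1) among 7176 genes averaging at least 10 CPM. These values describe shared differences between lines as much as between conditions. PLG, the plasminogen gene, was nearest to ITIH1 (r = 0.986), ASGR1 to ITIH2 (0.972), PIPOX to ITIH3 (0.987), VIL1 to AMBP (0.994), APOA2 to AHSG (0.982), APOB to A2M (0.975) and SERPINA6 to AGT (0.990). STK11 was nearest to VTN (0.973), SLC25A33 to FETUB (0.953) and TMEM201 to ITIH4 (0.931).

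MUSTN1, the neighbour that shares the AC006254.1 transcript with ITIH4, was the second nearest to ITIH4 (0.917). Among pairs of the 10 genes, VTN and AGT were the most alike (0.953) and ITIH2 and ITIH4 the least (0.224).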

How the data were processed

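Targeted amplicon libraries (DriverMap) were made from 500 ng of RNA each, per the labels' protocols, and the submitters' processing notes give hg38 as the build. The aligner is not given in the sources used here, nor is the counting step. The deposited values are a signal per amplicon that the authors scaled to a total of 500000 in each library. They were doubled to CPM. Whole reads were recovered from the steps of low values: at least 99.9684% of the values of a library lay within 0.01 of a whole read (largest departure 0.118). 1 damaged value (KRT18, not a gene of this set) was filled from its library's total (4021 CPM), and 14 rows shared a symbol with another row.

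Amplicons were kept by edgeR's filterByExpr (version 4.0.16, by group, at least 10 reads). Values were scaled by TMM and fitted with limma 3.58.1 (trended variance) on log2(CPM + 1), pseudocount 1 CPM, with 8 groups in 1 fit. P values were two-sided and adjusted by Benjamini-Hochberg. The script was tested on simulated data. Alternatives were DESeq2 1.42.0 size factors, total reads alone, other filters and pseudocounts, edgeR's quasi-likelihood test on the recovered reads, removal of GC and length trends, single-line fits, a replicate block, and libraries left out. Subtraction of reads at HepG2 genes was added after the data were seen. The main fit did not pair libraries by replicate number (correlations of -0.0955 to 0.457, 5 of 12 over 0.1). The highest were 0.457 for PLC/PRF/5 replicate 2 and 0.438 for HepG2 replicate 1. These values do not show that replicate numbers share no effect. The 10 genes and the lists were chosen with earlier results of these data known. Named genes were all 10 members, up to 2 called genes of each list and line with the largest change among those averaging 10 CPM, and the 3 nearest genes of each member. 1 gene of the lists and 1 amplicon sequence are not reported here.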

Additional observations from a re-analysis of the deposited data

Results flagged for a closer look

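In 5 of the 40 groups of 4 tumours tested, 1 tumour stood apart by Dixon's measure, the gap to the nearest tumour over the whole range, above its 95% critical value, which chance passes in about 1 of 20 groups. The measure was 0.846 for the lowest ITIH4 value in PLC/PRF/5 (0.608 CPM in replicate 1), 0.872 for the lowest AHSG value in HepG2 (2175 CPM in replicate 3) and 0.885 for the highest FETUB value in PLC/PRF/5 (1.13 CPM, 10 reads, in replicate 3). It was 0.917 for the highest AGT value in HepG2 (5982 CPM in replicate 3) and 0.92 for the highest AGT value in Hep3B (41695 CPM in replicate 1). Replicate 3 was the tumour that stood apart in 3 of these 5 groups. Every one of the 5 values lay on the same side of its cultures as the other tumours, except FETUB in PLC/PRF/5, where groups overlapped.

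The difference between tumours and cultures itself differed between lines by limma's interaction test for 9 genes. The adjusted p was 1.2e-13 for AHSG, 8.12e-13 for A2M, 9.36e-13 for ITIH1, 9.32e-12 for ITIH3, 7.56e-11 for AGT, 1.36e-08 for AMBP, 1.04e-06 for FETUB, 0.000383 for ITIH4 and 0.00537 for ITIH2. For AHSG and A2M the direction turned between lines, with every tumour above every culture in Hep3B and every tumour below every culture in HuH7. ITIH1 was called higher in HepG2 and Hep3B, ITIH3 in Hep3B and PLC/PRF/5 (in the latter not after the subtraction of reads at HepG2 genes, 0.22, adjusted p = 0.637), and ITIH4 in all lines with log2 differences of 1.13 to 3.06. For AGT the differences ran from 0.82 in HepG2 to 4.42 in PLC/PRF/5, and the last was -0.75 after the subtraction of reads at HepG2 genes.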

How the results depend on the processing

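Counts of called genes moved by over 1.5 times as follows, and the cause was not tested. In HepG2 the count of lower genes ranged from 1 to 3 with each library left out. In Hep3B it was 2 with total reads alone and without the in ovo libraries numbered 3, and from 1 to 2 with each library left out. With reads at HepG2 genes subtracted, PLC/PRF/5 had 4 higher and 1 lower. Over the mean of lines, 8 were higher and 1 lower, against 66.3% of all amplicons, and the lower count was 2 with total reads alone, 2 with that subtraction and 0 by edgeR. The direction turned for ITIH3 in HepG2 (-0.0389 with total reads alone, -0.0527 without the libraries numbered 3, -0.11 to 0.40 with each library left out), VTN in Hep3B (-0.20, total reads alone), ITIH1 in HuH7 (-0.16, GC and length trends removed), and A2M (-0.31) and AGT (-0.75) in PLC/PRF/5 with the subtraction. In the mean of lines it turned for ITIH2 (0.35, edgeR), AHSG (-0.0269 with trends removed, -0.38 with the subtraction), A2M (-0.62, subtraction) and FETUB (-0.28 with total reads alone, -0.12 without the libraries numbered 3, -0.0033 with the subtraction, -0.0132 to 0.0825 with each library left out). The AHSG fall in HepG2 had an adjusted p of 0.108 with the subtraction, which changes only PLC/PRF/5 libraries and the shared spread. With a replicate block, the mean of lines for AHSG was 0.26 (adjusted p = 0.112), no other call on the 10 genes changed, and the calls over all amplicons rose from 3285 to 4258 in HepG2. With total reads alone the higher and lower calls over all amplicons were 1199 and 2080 in HepG2 (1588 and 1697 with TMM), 1205 and 6820 in Hep3B (3220 and 3594), 1277 and 1202 in PLC/PRF/5 (1557 and 735) and 2646 and 6427 over the mean (4410 and 4271), and with DESeq2 size factors 1175 and 1047 in PLC/PRF/5. Depth limited ITIH1 and ITIH3 in HuH7 and FETUB in PLC/PRF/5, read at 1 to 11 reads a library.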
